A study of Mus musculus with 20 samples.

Results

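Lungs of mice labelled as VIP knockout and kept in low oxygen were set against lungs of wild-type mice in normal oxygen. The comparison holds 11 of the series' 20 libraries, 5 of VIPKO mice in hypoxia and 6 of wild-type (WT) mice in normoxia, taken by their labels. All are whole-lung RNA-seq libraries of C57BL/6 (WT) or VIP knockout (VIPKO) mice. Hypoxia was 10% oxygen for 4 weeks and normoxia was 21% oxygen. The labels name the VIPKO genotype a knockdown in 1 field and a knockout in titles and design text, and no promoter, Cre or tissue restriction is given. The other 9 libraries, 5 of WT mice in hypoxia and 4 of VIPKO mice in normoxia, served to fit the spread and to show each insult alone. Genotype and oxygen both differ between the 2 groups, so their shares in a change cannot be told apart here. The labels do not say that each library is a separate animal, so a p-value here measures only how much these libraries vary, which may be technical. All libraries carry the same batch label.

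Vasoactive intestinal peptide is a neuropeptide that relaxes airway and pulmonary vascular smooth muscle and dampens inflammation through the receptors encoded by Vipr1 and Vipr2. Chronic hypoxia constricts and remodels pulmonary arteries and is the standard way to raise pulmonary artery pressure in rodents. Cells meet low oxygen through the hypoxia-inducible factors (HIF), which turn on genes of glycolysis, red cell production and vessel growth. The lung endothelium depends on BMP signalling, and mutations in its receptors cause heritable pulmonary arterial hypertension.

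Values are in units of the deposited normalised signal. A change is a log2 difference ± SE, VIPKO hypoxia minus WT normoxia, from limma over 21658 genes, and a gene is called where its Benjamini-Hochberg adjusted p is under 0.05. Values in VIPKO hypoxia are given in the order of libraries 1 to 5, and WT normoxia by its range and median over 6 libraries. The largest rises and falls below were picked only from called genes whose groups do not overlap. For these genes the lack of overlap was set by the choice and is no added evidence. Because whole lungs were used, fewer cells of a type and less RNA per cell cannot be told apart.

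The targeted gene did not separate the groups. Vip (chromosome 10, 5639218 to 5647617, mm10) had a signal of 2.17, 4.7, 1.08, 106 and 1.2 in VIPKO hypoxia and 0 to 93, with a median of 3.64, in WT normoxia. The signal of 3 reads, the limit that a count of 0 allows for counting error only, was 1.03 to 5.03 where depth could be estimated, and 4.72 in WT normoxia 6, which was at 0. WT normoxia 1 and 3 and VIPKO hypoxia 3 and 5 were at or under their own limits. WT normoxia 2 and 4 were above theirs, at 12.7 against 4.25 and 5.17 against 1.03. VIPKO hypoxia 1 was at 2.17 against 1.08. The 2 highest libraries were WT normoxia 5 and the library labelled VIPKO hypoxia 4, which goes against its label. In VIPKO normoxia Vip was at 5.32, 5.54, 4.27 and 1.16 in libraries 1 to 4, 3 of the 4 above the WT normoxia median, so VIPKO names the labelled genotype and not a measured loss of Vip RNA. Between VIPKO hypoxia and WT normoxia the difference in means was 3.89 (2-sided exact permutation p = 0.779, 462 splits), and without the library labelled VIPKO hypoxia 4 it was -16.83 (exact permutation p = 0.362). No gene among the 5 tested of the VIP and PACAP ligands and receptors was called. Vipr2, which encodes a VIP receptor, changed by -0.50 ± 0.21 (adjusted p = 0.12) without passing.

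The libraries differed in more than their labels. Estimated depth ran from 12.04 to 56.7 M reads in WT normoxia and from 16.4 to 55.8 M in 4 VIPKO hypoxia libraries, and it could not be estimated in VIPKO hypoxia 2. The lung markers Sftpc, Ager and Scgb1a1 were high in all 11. Mitochondrial ribosomal RNA (the sum of mt-Rnr1 and mt-Rnr2) was 6678 ± 2266 (SD, n = 5) in VIPKO hypoxia and 863 ± 673 (SD, n = 6) in WT normoxia, a ratio of 7.74 (2-sided exact permutation p = 0.00433 on log2 values, the smallest that 462 splits can give). This RNA was higher still in VIPKO normoxia, at 12034 to 27208 against 4506 to 9415 in VIPKO hypoxia. In WT hypoxia it ran from 396 to 7058, with a median of 863. Xist was above 10000 and Ddx3y near 0 in 3 of 5 VIPKO hypoxia and 2 of 6 WT normoxia libraries. VIPKO hypoxia 3 held thymic RNA, with a summed signal of 10 thymus genes of 18994 against 307.2 to 343.7 in the other 4 and 318.6 to 388.2 in WT normoxia. VIPKO hypoxia 2 stood far from the other 4 on the first principal component, with a score of -65.4 against 13.2 to 76.2. On this component VIPKO normoxia 2 and 3 were at -59.2 and -75.4, and VIPKO normoxia 1 and 4 at -8.43 and -17.8. The reason for the position of VIPKO hypoxia 2 was not tested.

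In all, 2666 of 21658 genes (12.3%) were called, 1385 higher (6.39%) and 1281 lower (5.91%) in VIPKO hypoxia. Of these, 324 rose more than 2-fold (1.5%) and 317 fell more than 2-fold (1.46%), which is 641 genes or 2.96%. The groups did not overlap for 1787 genes (8.25%), of which 1468 were also called (6.78%). The change was positive for 51.2% of genes, and the median over all genes tested was 0.01, and the counts below are read against these shares. Hypoxia alone, WT hypoxia against the same WT normoxia libraries, gave 3173 calls (14.7%), and the VIPKO genotype alone, VIPKO normoxia against them, gave 1873 (8.65%). These 3 comparisons share their controls, so values are only set side by side. Leaving out the library labelled VIPKO hypoxia 4 left 1357 calls, and leaving out WT normoxia 6 left 1750. Without VIPKO hypoxia 2 and 3 there were 1569, of which 1355 were among the 2666. With a term for high Xist there were 2804, of which 2432 were among the 2666.

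**Figure D1:**
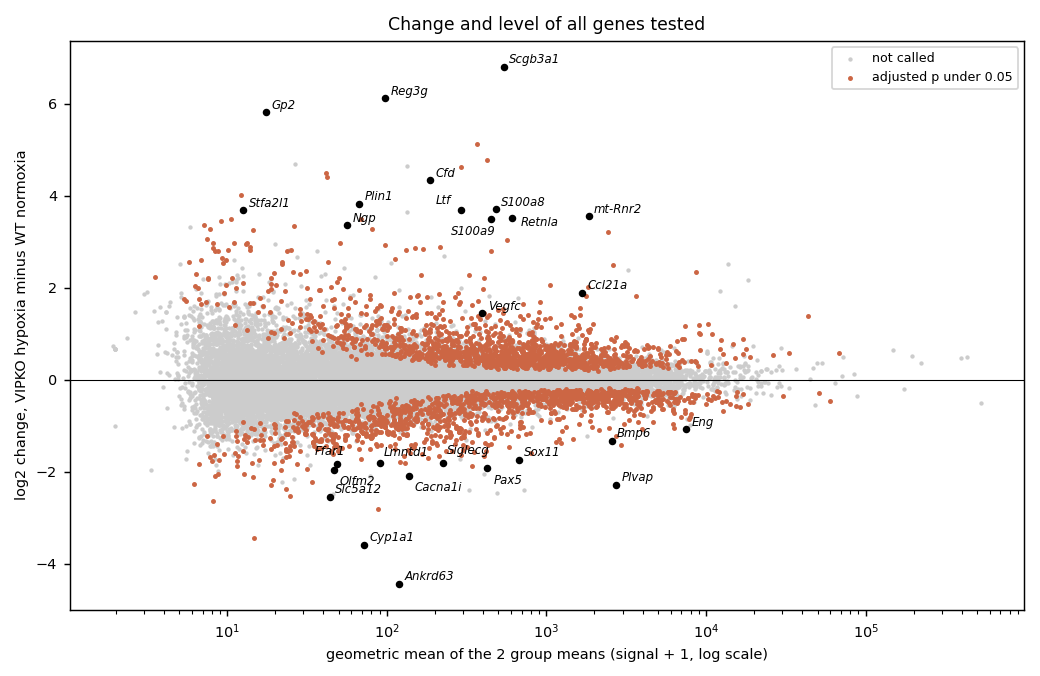
Log2 change of each of the 21658 genes tested (y axis, VIPKO hypoxia minus WT normoxia) against its level (x axis, geometric mean of the group means of signal + 1, log scale). Orange points are the 2666 called genes, and black points are named, from Scgb3a1 at 6.81 to Ankrd63 at -4.43.

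Genes of the HIF response and of glycolysis were higher in VIPKO hypoxia, while the endothelial HIF subunit and VEGF-A were lower. Of 19 HIF target genes tested, 8 rose and 1 fell, beside 6.39% and 5.91% of all genes, with a median change of 0.44. Glycolysis genes rose in 11 of 15, with a median of 0.56, and none fell. With hypoxia alone the medians were 0.45 for HIF targets and 0.61 for glycolysis, and with the VIPKO genotype alone 0.18 and 0.16. Aldoc, which encodes an aldolase of glycolysis, had a signal of 138, 119, 263, 209.7 and 162 in VIPKO hypoxia and 41 to 75.5, with a median of 66.4, in WT normoxia. All 5 VIPKO hypoxia libraries were above all 6 controls, and Aldoc rose by 1.501 ± 0.25 (adjusted p = 0.000753). Bnip3, a mitophagy receptor, was at 772, 980.4, 1302, 1449 and 995 against 445 to 761, with a median of 513, and rose by 0.997 ± 0.18 (adjusted p = 0.00137). Its groups did not overlap either.

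Ndrg1, a stress-responsive gene used as a hypoxia marker, rose by 0.89 ± 0.12 (adjusted p = 0.000125), with values of 1229, 1215, 1014, 1181 and 1176 against 549 to 835. Ldha, lactate dehydrogenase A, rose by 0.94 ± 0.19 (adjusted p = 0.00389), and Pfkl, the liver form of phosphofructokinase, by 0.69 ± 0.14 (adjusted p = 0.00426). Hif1a, the broadly expressed HIF subunit, rose by 0.56 ± 0.09 (adjusted p = 0.000799), with values of 1745, 1682, 1659.9, 2097 and 1855 against 1090.4 to 1443. Epas1, the HIF-2 subunit abundant in lung endothelium, fell by 0.46 ± 0.11 (adjusted p = 0.0128), with values of 59367, 44828, 41540.3, 55202 and 55098 against 61521 to 77394. Neither gene's groups overlapped. Vegfa, a HIF target made by alveolar type 1 cells, fell by 0.56 ± 0.09 (adjusted p = 0.000837) and was the only HIF target of this list called lower. Without VIPKO hypoxia 3 the risen HIF targets were 5 and the risen glycolysis genes 5, and without VIPKO hypoxia 1 the risen glycolysis genes were 6. Without the library labelled VIPKO hypoxia 4 they were 5 and 6. Leaving out WT normoxia 1, 2, 3, 4 or 6 gave 6 or 7 risen glycolysis genes. The glycolysis median stayed between 0.53 and 0.64 over the 11 libraries left out in turn.

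The HIF complex binds DNA around the letters ACGTG. The RefSeq promoter windows (250 bases before to 50 after the start, GRCm38.p6) of the risen HIF target and glycolysis genes were searched for ACGTG on both strands, so that CACGT on the printed strand counts too. Of 18 such genes 16 had a window and 12 of these (75%) held it, while 21.78% of all 27025 genes with a window and 19.62% of all 32851 windows did. A match is a description, not a binding site. These genes were taken from lists of HIF target and glycolysis genes, and listed genes that did not rise were not counted. The shares therefore cannot tie the letters to the rise. The windows below show the 4 risen genes with the smallest p among those with a match, then the 2 of the 12 largest falls with the smallest p that have a window, with matches in capitals. Fam162a, a HIF-responsive mitochondrial gene, rose by 0.74 ± 0.14 (adjusted p = 0.00179), and Ddit4, an inhibitor of mTOR signalling, by 1.39 ± 0.26 (adjusted p = 0.00212).
Aldoc (chr11:78322823-78323122, plus strand): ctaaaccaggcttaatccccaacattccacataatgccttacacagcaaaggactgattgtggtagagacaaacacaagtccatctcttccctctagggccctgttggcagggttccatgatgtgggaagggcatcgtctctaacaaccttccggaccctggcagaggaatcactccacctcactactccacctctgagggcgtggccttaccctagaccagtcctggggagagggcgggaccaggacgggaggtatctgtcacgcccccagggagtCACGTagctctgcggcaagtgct
Bnip3 (chr7:138909457-138909756, minus strand): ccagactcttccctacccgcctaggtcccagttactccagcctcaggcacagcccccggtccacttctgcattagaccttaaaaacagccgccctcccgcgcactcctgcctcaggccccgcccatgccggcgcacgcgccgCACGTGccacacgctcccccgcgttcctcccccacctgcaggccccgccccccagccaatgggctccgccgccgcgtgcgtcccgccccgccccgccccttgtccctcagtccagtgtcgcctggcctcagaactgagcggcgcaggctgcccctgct
Fam162a (chr16:36071512-36071811, minus strand): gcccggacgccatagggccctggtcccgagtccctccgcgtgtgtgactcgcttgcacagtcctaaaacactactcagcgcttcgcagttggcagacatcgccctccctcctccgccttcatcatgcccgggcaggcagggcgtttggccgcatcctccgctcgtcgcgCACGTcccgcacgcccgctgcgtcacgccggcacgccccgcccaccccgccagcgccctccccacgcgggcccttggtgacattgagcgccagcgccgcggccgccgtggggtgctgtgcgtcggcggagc
Ddit4 (chr10:59951721-59952020, minus strand): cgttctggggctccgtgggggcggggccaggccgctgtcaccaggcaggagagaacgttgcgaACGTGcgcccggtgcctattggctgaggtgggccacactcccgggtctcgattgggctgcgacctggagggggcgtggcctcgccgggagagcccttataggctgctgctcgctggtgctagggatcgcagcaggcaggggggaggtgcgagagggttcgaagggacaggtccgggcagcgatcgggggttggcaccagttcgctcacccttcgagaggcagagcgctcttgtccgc
Ankrd63 (chr2:118703914-118704213, minus strand): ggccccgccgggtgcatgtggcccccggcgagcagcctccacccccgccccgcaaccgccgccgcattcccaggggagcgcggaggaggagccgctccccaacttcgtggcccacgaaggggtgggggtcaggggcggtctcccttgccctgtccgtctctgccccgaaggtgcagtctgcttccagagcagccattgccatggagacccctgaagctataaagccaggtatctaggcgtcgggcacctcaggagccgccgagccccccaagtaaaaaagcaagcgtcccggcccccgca
Sox11 (chr12:27342669-27342968, minus strand): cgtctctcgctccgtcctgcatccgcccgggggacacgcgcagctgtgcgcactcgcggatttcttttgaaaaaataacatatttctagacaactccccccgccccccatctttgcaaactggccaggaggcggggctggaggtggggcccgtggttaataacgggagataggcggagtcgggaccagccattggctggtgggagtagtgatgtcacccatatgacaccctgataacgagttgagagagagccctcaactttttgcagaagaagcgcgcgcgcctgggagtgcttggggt
Counted from the first transcribed base of the RefSeq window as 1, with the base before it as -1, the match began at 28 in Aldoc, -81 in Fam162a and -187 in Ddit4. Bnip3 held CACGTG, which matches on both strands with 2 overlapping hits, the first at -108 and the next at -107. The windows of Ankrd63 and Sox11 held none of these letters.

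The largest falls were led by Ankrd63, which encodes an ankyrin-repeat protein, and by Cyp1a1, the cytochrome P450 induced through the aryl hydrocarbon receptor. Ankrd63 (chromosome 2, 118699103 to 118703963) had a signal of 34.7, 15.5, 19.4, 29.4 and 25.2 in VIPKO hypoxia and 384 to 701, with a median of 579, in WT normoxia. The highest VIPKO hypoxia library lay far below the lowest control. Some separation was a condition for the largest falls, Cyp1a1 included, so it is no added evidence. Ankrd63 fell by 4.43 ± 0.23 (adjusted p = 1.8e-10). Against the same controls it changed by -2.27 with hypoxia alone (adjusted p = 4.64e-05) and by -1.17 with the VIPKO genotype alone (adjusted p = 0.00763). Cyp1a1 (chromosome 9, 57687928 to 57703824) was at 28.9, 26.8, 21.6, 8.39 and 13.2 against 76.7 to 319, with a median of 291, and fell by 3.59 ± 0.47 (adjusted p = 8.68e-05). WT normoxia 1 was by far the lowest control and was still above all 5. The changes of Cyp1a1 with either insult alone, -0.996 and -0.76, did not pass (adjusted p = 0.142 and 0.359).

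Plvap, which forms the diaphragms of endothelial caveolae and fenestrae (chromosome 8, 71497765 to 71511752), was at 1551, 915, 1401, 1327 and 1035 against 5443 to 6339.6, with a median of 6010.1, and fell by 2.28 ± 0.17 (adjusted p = 1.5e-07). The highest VIPKO hypoxia library was under the lowest control, as the choice of the largest falls required. Plvap changed by -1.52 with hypoxia alone (adjusted p = 0.000182) and -0.71 with the VIPKO genotype alone (adjusted p = 0.0236). Also among the 12 largest falls were Slc5a12, a sodium-coupled lactate transporter, which fell by 2.54 ± 0.45 (adjusted p = 0.00134), and Cacna1i, a T-type calcium channel subunit, which fell by 2.10 ± 0.28 (adjusted p = 9.18e-05). The transcription factor gene Sox11 fell by 1.73 ± 0.17 (adjusted p = 3.35e-06), with values of 446, 365, 213, 397 and 441 against 1017 to 1536. VIPKO hypoxia 3 was far the lowest for Sox11, and all 5 were under every control, which the same choice required. Olfm2, an olfactomedin gene, fell by 1.96 ± 0.37 (adjusted p = 0.00221). Ffar1, a fatty acid receptor gene, fell by 1.82 ± 0.35 (adjusted p = 0.00242), and Lmntd1, which encodes a lamin tail domain protein, by 1.81 ± 0.23 (adjusted p = 8.06e-05). Pax5 and Siglecg, also among the 12, are genes of B cells.

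Called genes of the aerocyte and arterial endothelial lists were all lower, while general capillary and BMP pathway genes moved in both directions. Of 12 aerocyte genes, which mark the thin capillary cells of the gas exchange surface, 6 fell and none rose, with a median of -0.66. Of 12 arterial genes 4 fell, with a median of -0.29, and of 12 general capillary genes 4 fell and 2 rose (2 fell and 3 rose without VIPKO hypoxia 2 and 3), with a median of -0.18 and overlapping summed signals. Venous genes had 1 call among 7, the adhesion molecule gene Vcam1 (-0.41 ± 0.14, adjusted p = 0.0496), which was lost without VIPKO hypoxia 1, 2 or 5, or WT normoxia 1, 2, 4, 5 or 6, or the library labelled VIPKO hypoxia 4 (adjusted p = 0.0646 to 0.11 over these 9), and a median of 0.02. Ednrb, the endothelin B receptor and an aerocyte marker, had a signal of 966, 911, 593, 1039 and 1216 in VIPKO hypoxia against 2039 to 2481, with a median of 2289, in WT normoxia. No library of one group reached the other, and Ednrb fell by 1.30 ± 0.14 (adjusted p = 1.48e-05). Fibin, another aerocyte marker, fell by 1.10 ± 0.13 (adjusted p = 3.04e-05), Chst1, a sulfotransferase gene, by 1.02 ± 0.14 (adjusted p = 0.00018), and Kdr, the main VEGF receptor, by 0.81 ± 0.12 (adjusted p = 0.000278). Hilpda, a lipid droplet gene on the general capillary list and itself known as a HIF target, fell by 1.06 ± 0.15 (adjusted p = 0.00023). Of that list Cxcl12, a chemokine, rose by 1.21 ± 0.16 (adjusted p = 9.18e-05), with values of 12933, 14369.9, 13999, 19965 and 17301 against 5138 to 8353. The falls on that list were 2 without VIPKO hypoxia 3, without VIPKO hypoxia 5, without the library labelled VIPKO hypoxia 4, and without WT normoxia 3, 4 or 6.

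Dll4, the Notch ligand of arterial and sprouting endothelium (chromosome 2, 119325784 to 119335962), had a signal of 1028, 806, 578, 634 and 809 in VIPKO hypoxia against 1465 to 2293, with a median of 1992, in WT normoxia. The groups did not overlap, and Dll4 fell by 1.38 ± 0.17 (adjusted p = 4.85e-05). With hypoxia alone its change was -0.01 (adjusted p = 0.979), and with the VIPKO genotype alone -0.56 (adjusted p = 0.0587). The genotype by oxygen interaction did not pass, at -0.81 ± 0.25 (adjusted p = 0.149). Efnb2, the arterial ephrin ligand, fell by 0.91 ± 0.13 (adjusted p = 0.00018) and Notch4, an endothelial Notch receptor, by 0.67 ± 0.14 (adjusted p = 0.00465). Endothelial transcription factor genes fell in 3 of 14, namely Gata2 (-0.51), Foxo1 (-0.33) and Sox18 (-0.57), but none of the 3 was called without VIPKO hypoxia 3. The call of Sox18 was lost without VIPKO hypoxia 2, 3 or 5, or WT normoxia 1, 2, 3 or 4, or the library labelled VIPKO hypoxia 4 (adjusted p = 0.0541 to 0.125 over these 8).

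In the BMP pathway, 5 of 19 genes fell and 2 rose, with a median of -0.08. Bmp6, a BMP ligand made by lung endothelium (chromosome 13, 38345107 to 38500302), was at 1916, 1545, 1423, 1499 and 1676 in VIPKO hypoxia and 3168 to 4935, with a median of 4126, in WT normoxia. It fell by 1.33 ± 0.12 (adjusted p = 1.94e-06), with no overlap. Its changes with hypoxia alone and the VIPKO genotype alone were -0.78 and -0.63 (adjusted p = 0.00155 and 0.0072). Smad6, the inhibitory SMAD that BMP signals induce, was at 2670.3, 1868, 1329, 1630.2 and 1572 against 4209 to 5230.4, with a median of 4698, and fell by 1.42 ± 0.14 (adjusted p = 3.07e-06). Eng, the endothelial BMP co-receptor endoglin (chromosome 2, 32646595 to 32682669), was at 6624, 5009.98, 3861, 5033 and 5458 against 10121 to 11347, with a median of 10885. All 5 values lay below all controls, and Eng fell by 1.08 ± 0.13 (adjusted p = 2.79e-05). The receptor gene Acvrl1 fell by 0.44 ± 0.10 (adjusted p = 0.00779) with overlapping groups. Bmp2, a ligand chosen here after its values were seen, rose by 0.84 ± 0.16 (adjusted p = 0.00289). Of 16 heritable pulmonary hypertension genes 3 fell and none rose: Eng, Kdr and Acvrl1. Without VIPKO hypoxia 2 and 3 the falls in the BMP list were 3. The rises were 1 without VIPKO hypoxia 1, without the library labelled VIPKO hypoxia 4, or without WT normoxia 3, 4, 5 or 6.

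**Figure D2:**
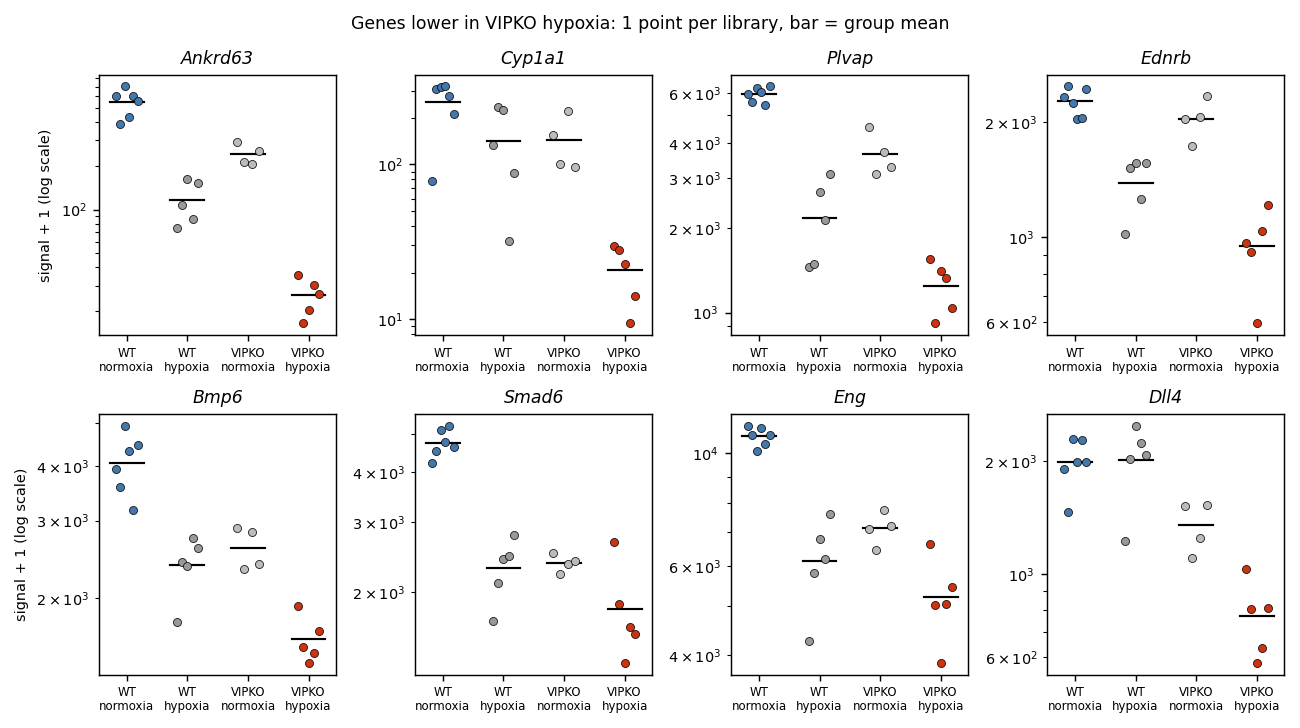
Signal + 1 (y axis, log scale) of 8 genes in each of the 20 libraries, 1 point per library by group (x axis), with bars at group means. All 8 genes, from Ankrd63 and Cyp1a1 to Eng and Dll4, lie lower in every VIPKO hypoxia library (red) than in every WT normoxia library (blue). For those among the largest falls, such as Ankrd63 and Cyp1a1, this was a condition of their choice.

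Lymphatic endothelial genes and the lymphatic growth factor gene Vegfc were higher. Of 10 lymphatic genes 6 rose and 1 fell, with a median of 0.84. The medians were 0.60 with hypoxia alone and 0.25 with the VIPKO genotype alone. Ccl21a, the chemokine of lymphatic endothelium, was at 2752, 2464, 3692, 3748 and 3466 in VIPKO hypoxia and 638 to 1004, with a median of 883, in WT normoxia. Every VIPKO hypoxia library exceeded every control, and Ccl21a rose by 1.90 ± 0.18 (adjusted p = 2.6e-06). It belongs to a family of near-identical gene copies, so its reads may be split between them. Prox1, the transcription factor that sets lymphatic identity, was at 563, 474, 307, 605 and 657 against 116 to 211, with a median of 151, and rose by 1.70 ± 0.22 (adjusted p = 9.18e-05). Mmrn1, a secreted protein of lymphatic and platelet cells, rose by 1.69 ± 0.20 (adjusted p = 4.5e-05), and Reln, reelin, chosen after its values were seen, by 1.48 ± 0.20 (adjusted p = 9.18e-05). Lyve1, which tissue macrophages also express, was the 1 that fell (-0.90 ± 0.29, adjusted p = 0.0495), and its call was lost without VIPKO hypoxia 2 or 3, or WT normoxia 1, 2, 3, 4, 5 or 6, or the library labelled VIPKO hypoxia 4 (adjusted p = 0.0578 to 0.136 over these 9).

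VEGF and angiopoietin genes were called higher in 4 of 14 and lower in 2. Vegfc, the ligand that drives lymphatic growth (chromosome 8, 54077606 to 54187096), was at 588, 564, 594, 808 and 693 in VIPKO hypoxia and 192 to 346, with a median of 231, in WT normoxia. The lowest VIPKO hypoxia library was well above the highest control, and Vegfc rose by 1.45 ± 0.14 (adjusted p = 3.05e-06). Group means were 649.6 ± 102 (SD, n = 5) for VIPKO hypoxia, 227 ± 32.1 (SD, n = 4) for VIPKO lungs in normoxia, 281 ± 25.6 (SD, n = 5) for WT lungs in hypoxia and 240.1 ± 56.2 (SD, n = 6) for the controls. Pgf, placental growth factor, chosen after its values were seen, rose by 1.18 ± 0.21 (adjusted p = 0.00157), with values of 119.9, 116, 119.8, 107 and 143 against 40.3 to 61.6. The risen genes of this list were 2 without VIPKO hypoxia 5, without the library labelled VIPKO hypoxia 4, or without WT normoxia 1, 4, 5 or 6.

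Genes of elastic fibres and matrix glycoproteins were higher, while contractile genes of smooth muscle gave 1 call. Elastic fibre, matrix glycoprotein and cross-linking genes rose in 6 of 21 and fell in none, with a median of 0.41. Their medians with hypoxia alone and the VIPKO genotype alone were -0.19 and -0.08. Lox, lysyl oxidase, which cross-links collagen and elastin, was at 3370.4, 2744, 2269, 2598 and 2207 in VIPKO hypoxia and 985 to 1703, with a median of 1194, in WT normoxia. No control reached the lowest of the 5, and Lox rose by 1.03 ± 0.17 (adjusted p = 0.000729). Fbln2, a fibulin of elastic fibres, rose by 1.10 ± 0.19 (adjusted p = 0.00121), and Sparc, a collagen-binding glycoprotein, by 0.54 ± 0.12 (adjusted p = 0.00643). Fn1, fibronectin, rose by 0.66 ± 0.17 (adjusted p = 0.0142), with values of 23414, 20769, 20186, 21749 and 25934 against 11399 to 16292. Collagen genes had 1 call among 16, Col12a1 (-0.53 ± 0.14, adjusted p = 0.0212), which was lost without VIPKO hypoxia 3 (adjusted p = 0.0607), and a median of 0.08. In the TGF-beta and activin list 4 of 16 rose and 1 fell. Tgfbi, a TGF-beta-induced matrix protein, rose by 0.96 ± 0.16 (adjusted p = 0.000642), Fst, the activin antagonist follistatin, by 0.77 ± 0.17 (adjusted p = 0.00684), and Smad3 fell by 0.35 ± 0.09 (adjusted p = 0.0122). Without VIPKO hypoxia 5, or the library labelled VIPKO hypoxia 4, the risen genes of that list were 2.

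Smooth muscle contractile genes had 1 call among 15, Hhip (-0.86 ± 0.25, adjusted p = 0.0295), an inhibitor of hedgehog signalling, whose call was lost without VIPKO hypoxia 1, 2 or 3, or WT normoxia 2, 4 or 6 (adjusted p = 0.051 to 0.0864 over these 6). Their median was 0.15. Of 12 pericyte genes 1 was called. Higd1b, a pericyte marker, rose by 1.13 ± 0.16 (adjusted p = 0.000186), with values of 233, 378, 258, 345 and 312 against 112 to 153. Of 13 potassium and calcium channel genes of the pulmonary artery only the mechanosensor Piezo1 was called (-0.24 ± 0.07, adjusted p = 0.0273). That call was lost without VIPKO hypoxia 3, or WT normoxia 3, 4 or 6, or the library labelled VIPKO hypoxia 4 (adjusted p = 0.0512 to 0.0974 over these 5). In the nitric oxide and cGMP list 2 of 14 rose and 3 fell. Nos3, endothelial nitric oxide synthase, rose by 0.66 ± 0.13 (adjusted p = 0.00301) and Ddah1, which degrades its inhibitor ADMA, fell by 1.01 ± 0.16 (adjusted p = 0.000549). Npr2, a natriuretic peptide receptor, fell by 0.38 ± 0.07 (adjusted p = 0.00103). Ece1, which matures endothelin, fell by 0.39 ± 0.09 (adjusted p = 0.00728), 1 of 2 falls with Ednrb among 10 endothelin and angiotensin genes. Of 13 prostanoid genes 3 rose and 1 fell. Hpgd, which inactivates prostaglandins, fell by 0.68 ± 0.13 (adjusted p = 0.00225), and Ptgs1, cyclo-oxygenase 1, rose by 0.53 ± 0.14 (adjusted p = 0.0167). The rises were 1 without VIPKO hypoxia 3 or 5, WT normoxia 2 or 6, or the library labelled VIPKO hypoxia 4. None of 7 serotonin pathway genes passed. The transporter Slc6a4 changed by 0.60 ± 0.25 (adjusted p = 0.111).

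**Figure D3:**
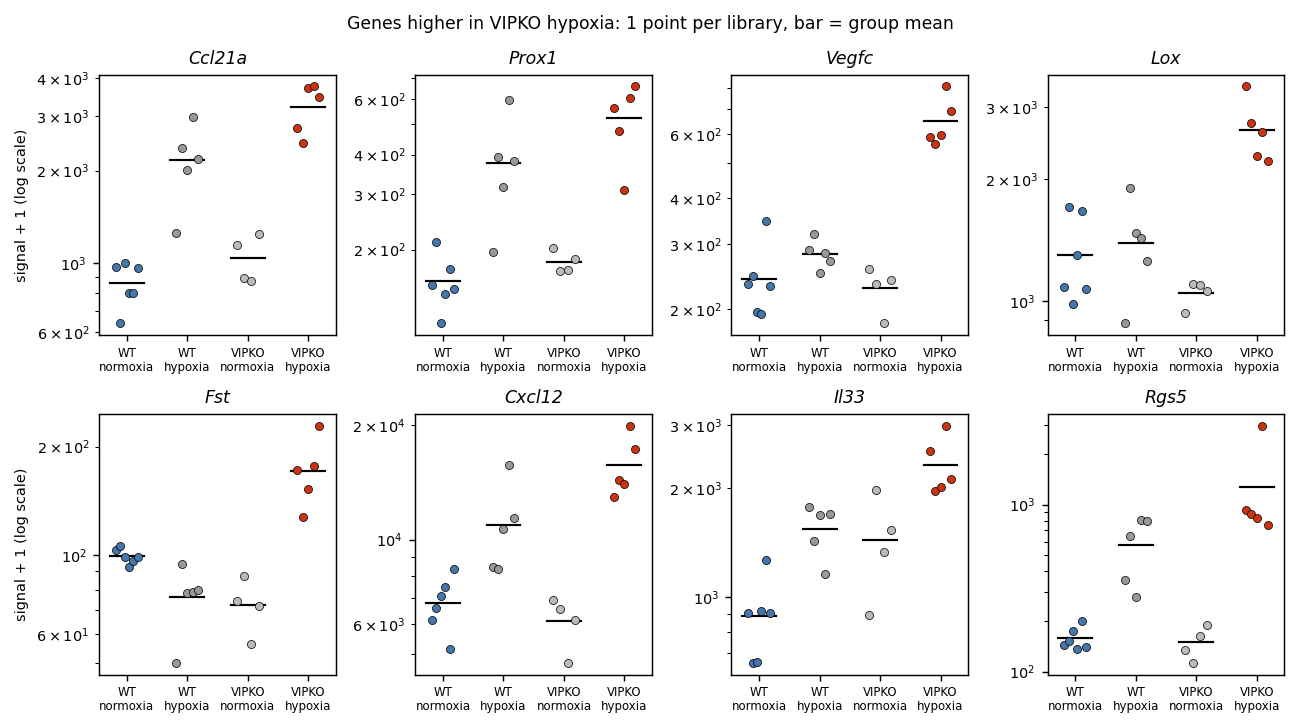
Signal + 1 (y axis, log scale) of 8 genes in each of the 20 libraries, 1 point per library by group (x axis), with bars at group means. Every VIPKO hypoxia library (red) is above every WT normoxia library (blue) for all 8, and Rgs5 has 1 VIPKO hypoxia library, at 2964, far above the other 4.

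Neutrophil genes had the highest median change of the 57 lists, close to the 2.78 of adipocyte genes. With single libraries left out these medians ran from 2.23 to 3.31 and from 2.19 to 3.27, so their order is not settled. Of 13 neutrophil genes tested, 12 rose and none fell, with a median of 2.82, against 0.69 with hypoxia alone and 1.03 with the VIPKO genotype alone, and none was called for the interaction. S100a8, a subunit of the neutrophil protein calprotectin, was at 6154, 1151, 2588, 517 and 318 in VIPKO hypoxia and 48.1 to 170.3, with a median of 98.6, in WT normoxia. All VIPKO hypoxia values lay above the highest control, as the choice of the largest rises required. They spread from 318 to 6154, with VIPKO hypoxia 1 and 3 highest. S100a8 rose by 3.71 ± 0.59 (adjusted p = 0.000568). Its partner S100a9 rose by 3.50 ± 0.58 (adjusted p = 0.000799). The surface marker Ly6g, chosen after its values were seen, was at 129.7, 17.2, 79.8, 6.29 and 5.99 against 0.344 to 1.68, with a median of 1.41, and rose by 3.50 ± 0.76 (adjusted p = 0.00594). Every control lay under the signal of 3 reads for Ly6g, so the size of its rise is uncertain. Ngp, a granule protein of immature neutrophils, rose by 3.36 ± 0.70 (adjusted p = 0.00459), and Mmp8, neutrophil collagenase, by 2.82 ± 0.52 (adjusted p = 0.00196). Stfa2l1, a stefin gene, rose by 3.68 ± 0.92 (adjusted p = 0.0142). Ltf and Lcn2, which airway epithelium also makes, rose by 3.70 and 2.03. The summed signal of the list was 26726, 8036, 17786, 6417 and 4717 in VIPKO hypoxia and 1706 to 2533 in WT normoxia. Without VIPKO hypoxia 1 the change was 2.90 for Ly6g, 2.68 for Ngp and 3.08 for Stfa2l1. Without VIPKO hypoxia 2 and 3 the risen genes were 6 of 13, and leaving out single libraries gave 8 to 12.

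Macrophage genes and genes of type 2 inflammation were also higher. Of 15 alveolar macrophage genes 12 rose, with a median of 1.03, and none fell. Their medians were 0.83 with hypoxia alone and 0.85 with the VIPKO genotype alone. Retnla, a product of alternatively activated macrophages, was at 660.3, 1262, 5721, 2557 and 914 in VIPKO hypoxia and 72.1 to 325, with a median of 152, in WT normoxia, and rose by 3.51 ± 0.74 (adjusted p = 0.0051). The 2 ranges did not meet, as the choice of the largest rises required, and VIPKO hypoxia values differed widely among themselves. Marco, a scavenger receptor, chosen after its values were seen, rose by 2.63 ± 0.52 (adjusted p = 0.00295), with values of 191, 217, 605, 214 and 145 against 11.3 to 77.4. Mrc1, the mannose receptor, rose by 1.21 ± 0.18 (adjusted p = 0.000361), and Fabp5, a fatty acid carrier of alveolar macrophages, by 1.22 ± 0.23 (adjusted p = 0.00255). Il33, the alarmin of type 2 inflammation (chromosome 19, 29925114 to 29960718), was at 2538, 1971, 2013, 2984 and 2124 against 657 to 1266, with a median of 902. All 5 were above all controls, and Il33 rose by 1.41 ± 0.19 (adjusted p = 9.18e-05). In all 5 of 12 type 2 inflammation genes rose. Of 13 interstitial macrophage genes 2 rose, Cd163 by 1.03 ± 0.23 (adjusted p = 0.00804) and F13a1 by 0.91 ± 0.21 (adjusted p = 0.00812), and 1, Lyve1, fell. Ctsk, a protease on the alveolar macrophage and protease lists, rose by 2.22 ± 0.41 (adjusted p = 0.00184). Protease and inhibitor genes rose in 5 of 15 and fell in 1. Without VIPKO hypoxia 2 and 3 the risen alveolar macrophage genes were 7 and the risen protease genes 3. Without VIPKO hypoxia 2 alone, or WT normoxia 2 alone, 5 and 4 interstitial macrophage genes rose.

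B cell genes fell in 10 of 12, with a median of -1.34. The medians were -0.89 with hypoxia alone and -0.15 with the VIPKO genotype alone. Pax5, the transcription factor of B cell identity, was at 162, 295, 172, 192 and 260.2 in VIPKO hypoxia and 493 to 1182, with a median of 869, in WT normoxia. It fell by 1.91 ± 0.23 (adjusted p = 4.85e-05), without overlap, which the choice of the largest falls required. Siglecg, an inhibitory receptor of B cells, fell by 1.81 ± 0.26 (adjusted p = 0.000216), Blk, a B cell kinase, by 1.51 ± 0.21 (adjusted p = 0.000181), and Ms4a1, which encodes CD20 and was chosen after its values were seen, by 1.14 ± 0.20 (adjusted p = 0.00147). The number of the 12 called lower was 10 or 11 with each of the 11 libraries left out in turn. The summed signal of the list overlapped, at 2963, 6581, 5484, 6759 and 4141 against 4734 to 16745. Both MHC class II genes that fell, H2-Ob by 1.15 ± 0.25 (adjusted p = 0.00551) and H2-Oa by 1.07 ± 0.33 (adjusted p = 0.0367), encode the B cell chaperone DO. The call of H2-Oa was lost without VIPKO hypoxia 1, 2 or 5, or WT normoxia 1, 2, 3 or 4, or the library labelled VIPKO hypoxia 4 (adjusted p = 0.0575 to 0.0898 over these 8).

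Natural killer genes fell in 5 of 11, with a median of -0.86. Eomes, a transcription factor of natural killer cells, was at 17, 29.2, 28, 19.9 and 22.8 in VIPKO hypoxia and 41.9 to 83.1, with a median of 59.1, in WT normoxia and fell by 1.30 ± 0.27 (adjusted p = 0.00459). The 2 groups did not overlap. Ncr1, an activating receptor, fell by 1.18 ± 0.29 (adjusted p = 0.0121), and Prf1, perforin, by 0.92 ± 0.24 (adjusted p = 0.0158), both with overlap. The call of Prf1 was lost without the library labelled VIPKO hypoxia 4 (adjusted p = 0.0562). Without the library labelled VIPKO hypoxia 4 the fallen genes were 2, and without WT normoxia 1, 2, 4 or 6 they were 3. Of 12 T cell genes only Ccr7, a homing receptor, fell (-0.87 ± 0.18, adjusted p = 0.00533), and the median of that list was 0.17. The list is also expressed by thymocytes, and the part of the thymic RNA in VIPKO hypoxia 3 was not tested. The summed signal of the list was 1793, 2015, 16357, 1433 and 1750 in VIPKO hypoxia, with only library 3 high, and 1809 to 3624 in WT normoxia. Without VIPKO hypoxia 2 and 3, the fallen T cell genes were 3. The median of the list ran from -0.54 to 0.46 with single libraries left out, so it does not show T cell genes as unchanged. Monocyte genes rose in 2 of 12, Pglyrp1, a granule protein that neutrophils share, by 1.45 ± 0.33 (adjusted p = 0.00763), and Fn1. Interferon-stimulated genes had 1 call among 15, Oas2 (0.84 ± 0.27, adjusted p = 0.0448), an antiviral synthetase, which was lost without VIPKO hypoxia 1 or 2, or WT normoxia 1, 2, 3, 4 or 6 (adjusted p = 0.0556 to 0.119 over these 7).

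**Figure D4:**
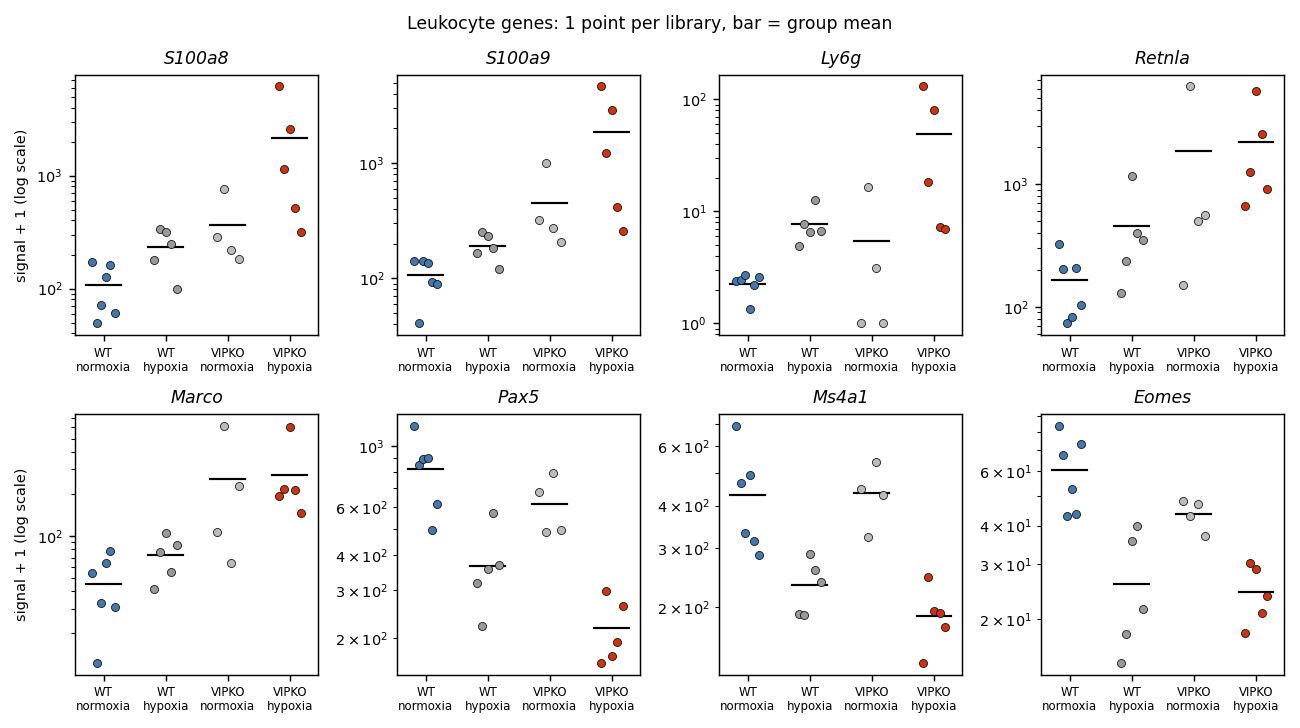
Signal + 1 (y axis, log scale) of 8 leukocyte genes in each of the 20 libraries, 1 point per library by group (x axis), with bars at group means. The neutrophil genes S100a8, S100a9 and Ly6g and the macrophage genes Retnla and Marco lie higher in every VIPKO hypoxia library than in every WT normoxia library, and Pax5, Ms4a1 and Eomes lie lower. For those among the largest rises and falls, such as S100a8, Retnla and Pax5, this was a condition of their choice.

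Airway secretory genes held the 3 largest rises among the named genes. Of 15 tested 9 rose and none fell, with a median of 2.50. The medians were 2.87 with hypoxia alone and 2.76 with the VIPKO genotype alone. Scgb3a1, a secretoglobin of large airways, was at 1827, 2627, 4462, 2435 and 1009 in VIPKO hypoxia and 0 to 544, with a median of 12.7, in WT normoxia. It rose by 6.81 ± 1.07 (adjusted p = 0.000486), and the controls themselves spread from 0 to 544. They lay below all 5, as the choice of the largest rises required. Reg3g, an antimicrobial lectin, was at 202, 521, 723, 487 and 242 against 0 to 96.6, with a median of 4.06, and rose by 6.11 ± 0.99 (adjusted p = 0.000614). The lowest control was at 0 for both genes. The control median of Reg3g lay within the signals of 3 reads in the controls, 1.03 to 5.03. The size of these rises is therefore uncertain. Gp2, a membrane glycoprotein of secretory epithelium, rose by 5.81 ± 0.94 (adjusted p = 0.000614). Without WT normoxia 5 the change was 7.76 for Scgb3a1 and 6.94 for Reg3g, without WT normoxia 6 that of Scgb3a1 was 5.945, and without VIPKO hypoxia 5 that of Gp2 was 6.44. The labels do not say how much large airway each sample held. The summed signal of the list was 302298, 276246, 354325, 410929.5 and 330705 against 201369 to 278289. Its part in single rises was not tested.

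Alveolar type 2 genes rose in 4 of 12, among them Sftpd, surfactant protein D, by 1.16 ± 0.22 (adjusted p = 0.00224), and Lamp3, a lamellar body protein, by 0.85 ± 0.15 (adjusted p = 0.00131). The median of the list was 0.38, against 0.57 with hypoxia alone and 0.11 with the VIPKO genotype alone. Napsa, which processes surfactant protein B, rose by 0.51 ± 0.14 (adjusted p = 0.0246), and its call was lost without VIPKO hypoxia 3, or WT normoxia 3 or 6, or the library labelled VIPKO hypoxia 4 (adjusted p = 0.0502 to 0.072 over these 4). The rises were 2 without VIPKO hypoxia 3, without WT normoxia 3 or 6, or without the library labelled VIPKO hypoxia 4. Without VIPKO hypoxia 2 and 3 they were 2. Alveolar type 1 genes fell in 2 of 10, Vegfa and Rtkn2 (-0.46), and the call of Rtkn2 was lost without VIPKO hypoxia 1 or 3, or WT normoxia 2, 3, 4, 5 or 6, or the library labelled VIPKO hypoxia 4 (adjusted p = 0.0506 to 0.0968 over these 8). Ciliated cell genes had 1 call among 12, Cfap126 (1.03 ± 0.27, adjusted p = 0.0166), which was lost without the library labelled VIPKO hypoxia 4 (adjusted p = 0.0583).

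Genes of fat tissue rose as well. Of 12 adipocyte genes 7 rose, with a median of 2.78 against 3.03 with hypoxia alone and 1.08 with the VIPKO genotype alone. Cfd, adipsin, was at 938, 646, 1008, 342 and 269 in VIPKO hypoxia and 4.72 to 185, with a median of 32.4, in WT normoxia and rose by 4.34 ± 0.80 (adjusted p = 0.00199). Plin1, which coats fat droplets, rose by 3.82 ± 0.85 (adjusted p = 0.00708), Adipoq, adiponectin, by 4.48 ± 0.94 (adjusted p = 0.00493), and Retn, resistin, by 4.01 ± 0.69 (adjusted p = 0.00105). The groups of Adipoq overlapped, and without WT normoxia 2 its change was 5.21. The summed signal of the list was 16101, 8249.9, 11977, 8011 and 6896 in VIPKO hypoxia and 4958 to 6257 in WT normoxia, without overlap, and Lep and Ucp1 stayed under 5 in every WT normoxia library. Fabp4 and Cidec of this list are on the alveolar macrophage list too. Of 8 skeletal muscle genes none was called, but their sum reached 1215 in VIPKO hypoxia 1 against 89.4 to 147 in WT normoxia. None of 12 cardiac, 10 erythroid or 9 platelet genes was called. Mesothelial genes had 1 call among 8, mesothelin (Msln, 1.32 ± 0.40, adjusted p = 0.0367), which was lost without VIPKO hypoxia 1, 3 or 5, or WT normoxia 1 or 6, or the library labelled VIPKO hypoxia 4 (adjusted p = 0.0539 to 0.0825 over these 6).

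Many genes of the energy and translation machinery were higher. Nuclear genes of oxidative phosphorylation rose in 8 of 21, with a median of 0.58, and cytosolic ribosomal protein genes in 12 of 24, with a median of 0.57. Atp5k, a subunit of ATP synthase, was at 138, 169, 308, 258 and 162 in VIPKO hypoxia and 21.6 to 95.4, with a median of 57.9, in WT normoxia and rose by 1.88 ± 0.36 (adjusted p = 0.00237). The groups did not overlap. Ndufa4 rose by 0.76 ± 0.16 (adjusted p = 0.00493) and Ndufb3, a subunit of complex I, by 0.75 ± 0.17 (adjusted p = 0.00757). Rps29 and Rpl38, both short ribosomal protein genes, rose by 1.16 ± 0.23 (adjusted p = 0.00294) and 1.49 ± 0.31 (adjusted p = 0.00446), with changes of 1.73 and 2.18 with the VIPKO genotype alone. The mitochondrial mRNA mt-Atp8 rose by 2.05 ± 0.58 (adjusted p = 0.026), 1 of 13 such mRNAs, and was lost without VIPKO hypoxia 2, or WT normoxia 1, 3 or 6, or the library labelled VIPKO hypoxia 4 (adjusted p = 0.0535 to 0.0667 over these 5). The ribosomal RNA mt-Rnr2 rose by 3.55 ± 0.71 (adjusted p = 0.00344), or by 2.865 without WT normoxia 2. Across genes, change fell with transcript length (Spearman rho = -0.166 over 20982 genes, which are not independent) and the rho with GC content was -0.0469. The part of mitochondrial ribosomal RNA and of transcript length in these rises was not tested. Without VIPKO hypoxia 3, or the library labelled VIPKO hypoxia 4, the risen ribosomal genes were 6, and without VIPKO hypoxia 2 and 3 they were 3.

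Among metabolic and stress lists, sterol and fatty acid synthesis genes rose in 5 of 15. Fdps, a sterol pathway enzyme, was at 788, 786, 998, 943 and 763 in VIPKO hypoxia and 209 to 503, with a median of 370.1, in WT normoxia and rose by 1.25 ± 0.19 (adjusted p = 0.000389). Scd1, a fatty acid desaturase also high in fat, rose by 1.38 ± 0.25 (adjusted p = 0.00175). Neither gene overlapped between groups. Hmox1, haem oxygenase 1, rose by 0.89 ± 0.17 (adjusted p = 0.003), and Gclc, of glutathione synthesis, by 0.61 ± 0.12 (adjusted p = 0.00255). They are 2 of the 3 risen among 12 aryl hydrocarbon receptor and NRF2 targets, of which Cyp1a1 fell. Of 12 glucocorticoid-responsive genes 3 rose: Lcn2, Mt1 and Mt2, of which the metallothionein Mt2 rose by 1.56 ± 0.29 (adjusted p = 0.00217). Leaving out WT normoxia 5 made that 5. Heat shock genes rose in 3 of 14, such as the chaperone Dnajb1 by 0.68 ± 0.17 (adjusted p = 0.0142) and Hspa5, of the endoplasmic reticulum, by 0.62 ± 0.17 (adjusted p = 0.0239). The call of Hspa5 was lost without VIPKO hypoxia 1 (adjusted p = 0.0642). In all 7 genes of this list were called higher without WT normoxia 5, and 1 without VIPKO hypoxia 2 and 3. Immediate early genes fell in 2 of 15, Egr3 (-1.13) and Jun (-0.42), both growth factor-induced transcription factors. Egr3 was lost without VIPKO hypoxia 3 or 5, or WT normoxia 2, 3, 4 or 6, or the library labelled VIPKO hypoxia 4 (adjusted p = 0.0527 to 0.0897 over these 7). Jun was lost without VIPKO hypoxia 3 or 5, or WT normoxia 2, 3, 4, 5 or 6, or the library labelled VIPKO hypoxia 4 (adjusted p = 0.0595 to 0.117 over these 8). None of 15 clock genes and none of 22 cell cycle genes was called, with medians of 0.39 and 0.34. The nearest were Cry1, at 0.81 ± 0.30 (adjusted p = 0.084), and Pcna, at 0.41 ± 0.15 (adjusted p = 0.0688).

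**Figure D5:**
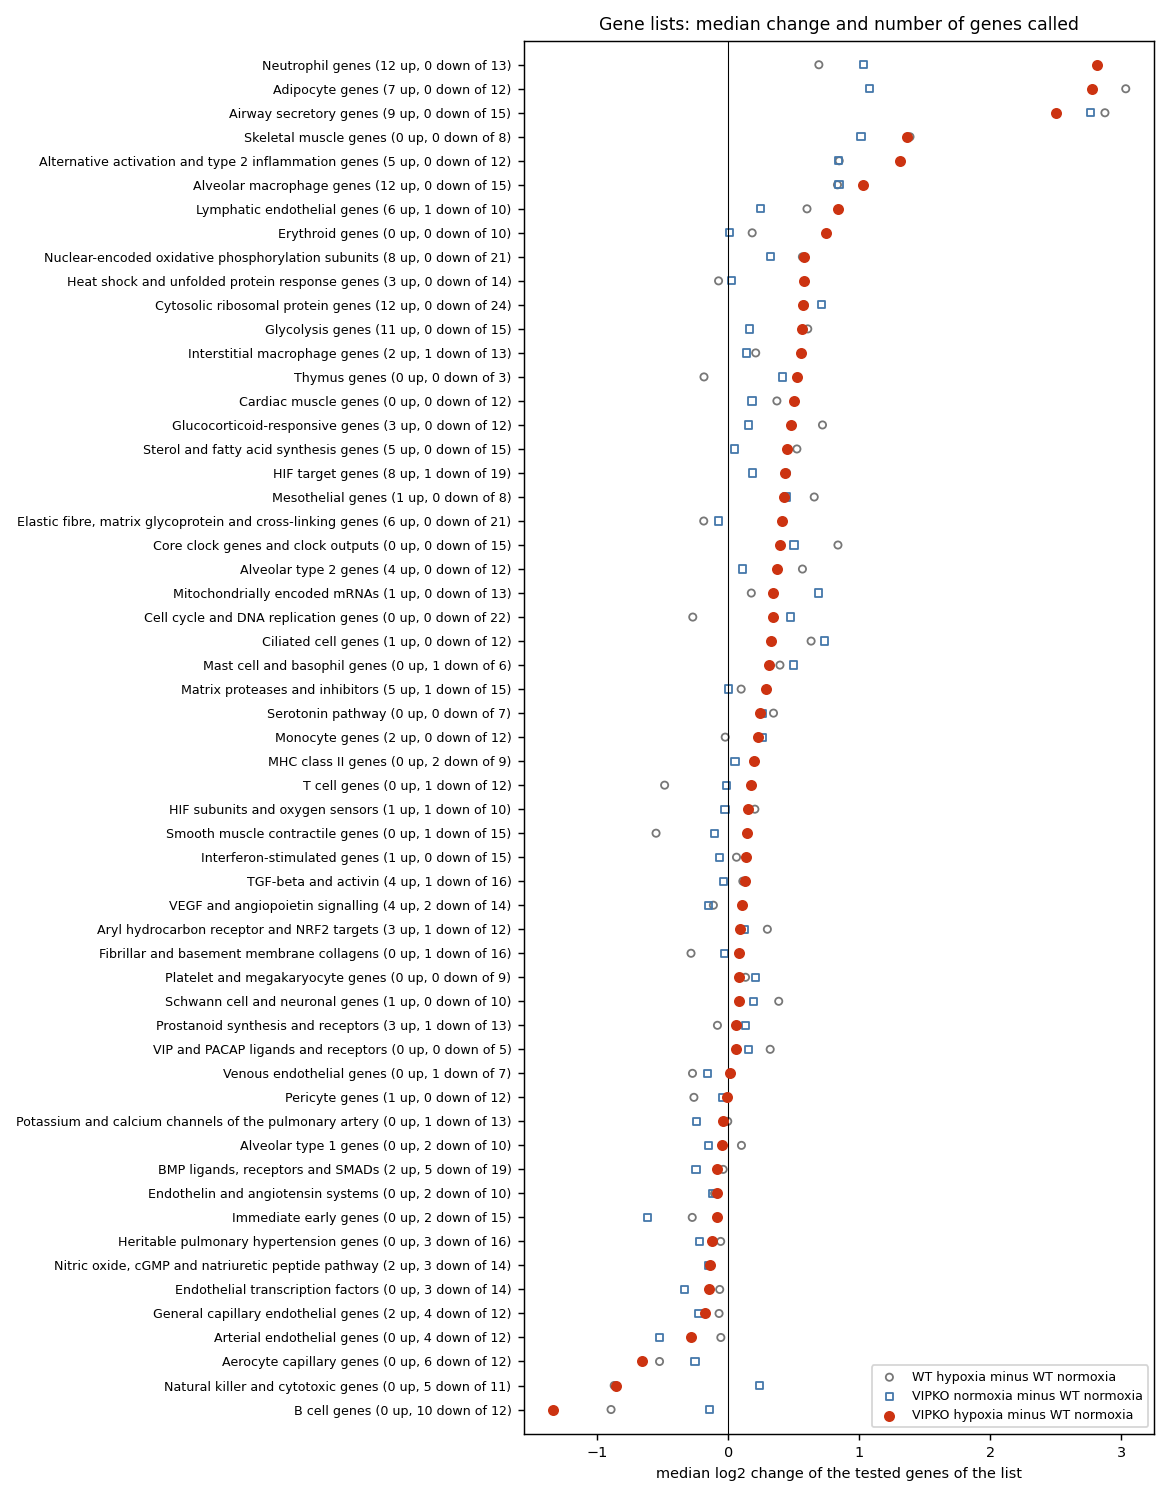
Median log2 change of the tested genes in 57 gene lists (x axis, lists on the y axis with counts called up and down) for VIPKO hypoxia (red), WT hypoxia (grey circles) and VIPKO normoxia (blue squares), each minus the same 6 WT normoxia libraries. In VIPKO hypoxia neutrophil genes are highest at 2.82, close to adipocyte genes at 2.78, and B cell genes are lowest at -1.34.

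The interaction term asked whether the combined change differed from the sum of the changes with each insult alone, on the log2 scale. It was called for 61 of 21658 genes (0.282%), 29 positive and 32 negative, and 3082 had an unadjusted p under 0.05. The count was 364 without VIPKO hypoxia 3, and 8, 27 and 25 without VIPKO hypoxia 1, 2 and 5. It was 9 without the library labelled VIPKO hypoxia 4, and 37, 15, 7 and 35 without WT normoxia 1, 3, 4 and 6. Vegfc stood above that sum by 1.26 ± 0.21 (adjusted p = 0.0179), with the group means given above. Fst (chromosome 13, 114452290 to 114458951) stood above it by 1.63 ± 0.25 (adjusted p = 0.0163). Its group means were 170.4 ± 37.6 (SD, n = 5) for VIPKO hypoxia, 71.6 ± 12.7 (SD, n = 4) for VIPKO lungs in normoxia, 75.2 ± 16 (SD, n = 5) for WT lungs in hypoxia and 98 ± 4.77 (SD, n = 6) for the controls. In both genes the VIPKO hypoxia mean was the highest of the 4, and both kept their call with each of the 11 libraries left out in turn. The WT hypoxia and VIPKO normoxia libraries, which the interaction also uses, were not left out. With a term for replicate number added to the fit, 0 interactions were called, so neither call was kept there.

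Lox, at 1.23 ± 0.25 (adjusted p = 0.0397), and the acute-phase gene Serpina3n, at 1.43 ± 0.29 (adjusted p = 0.0384), were also positive. Lox averaged 2638 ± 467 (SD, n = 5) for VIPKO hypoxia, 1049 ± 78.4 (SD, n = 4) for VIPKO lungs in normoxia, 1388 ± 368 (SD, n = 5) for WT lungs in hypoxia and 1302 ± 313 (SD, n = 6) for the controls. Lipg, endothelial lipase, at 1.03 ± 0.22 (adjusted p = 0.0498), fell with hypoxia alone (-1.005, adjusted p = 0.00117) and did not pass in VIPKO hypoxia against WT normoxia (-0.21 ± 0.15, adjusted p = 0.377). The interaction call of Serpina3n was lost without VIPKO hypoxia 1 or 5, or WT normoxia 1, 2, 3 or 4, or the library labelled VIPKO hypoxia 4 (adjusted p = 0.053 to 0.0839 over these 7). That of Lox was lost without VIPKO hypoxia 1, 2 or 5, or WT normoxia 1, 2, 3, 4, 5 or 6, or the library labelled VIPKO hypoxia 4 (adjusted p = 0.0502 to 0.0928 over these 10). That of Lipg was lost without VIPKO hypoxia 1, 2 or 5, or WT normoxia 1, 2, 3, 4 or 6, or the library labelled VIPKO hypoxia 4 (adjusted p = 0.0563 to 0.111 over these 9).

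The 5 named negative interactions were of genes called higher with each insult alone whose change with both fell short of the sum. Cyp2a5, a cytochrome P450 of airway and olfactory epithelium, had an interaction of -4.28 ± 0.63 (adjusted p = 0.0117). It kept its call with each of the 11 libraries left out, none of them of WT hypoxia or VIPKO normoxia. Its changes were 2.87 with hypoxia alone, 2.59 with the VIPKO genotype alone and 1.19 ± 0.42 (adjusted p = 0.0676) with both. Bpifa1, an antimicrobial protein of airway secretions, had an interaction of -6.87 ± 1.46 (adjusted p = 0.048), with changes of 6.08, 5.58 and 4.79 ± 0.98 (adjusted p = 0.00411). Without WT normoxia 5 its interaction was -7.855 and its change with both 5.775, and without WT normoxia 6 they were -6.27 and 4.19. Sult1d1, a sulfotransferase, had -3.18 ± 0.59 (adjusted p = 0.0293), Serpina9, a serpin gene, -2.94 ± 0.60 (adjusted p = 0.0397), and Adh7, an alcohol dehydrogenase, -2.31 ± 0.49 (adjusted p = 0.0438). For Sult1d1 the call was lost without VIPKO hypoxia 1, 2 or 5, or WT normoxia 3 or 4, or the library labelled VIPKO hypoxia 4 (adjusted p = 0.0506 to 0.0666 over these 6). The calls of Bpifa1, Serpina9 and Adh7 were lost without any of the 11 libraries other than VIPKO hypoxia 3 and WT normoxia 5, at adjusted p up to 0.102, 0.0928 and 0.1005.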

How the data were processed

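Whole-lung RNA of 20 libraries in 4 groups was sequenced. Per the labels, RNA was purified with an RNeasy kit, 1 µg went into a directional NEBNext Ultra II library, and the deposited values are normalised gene counts, used here as a signal that is not whole-numbered. The submitters' processing notes name Partek and mm10. For the aligner, counting strand and normalisation method, the sources used here give no name.

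The deposited signal was taken as log2(signal + 1), so changes of low genes are understated. Genes at 10 or more in at least 4 libraries (21658) were fitted in R 4.3.3 by limma 3.58.1, with its variance trend switched on and 1 mean for each of the 4 groups of the 20 libraries, which gave 16 residual degrees of freedom. Rows with no gene name (55 of 30746) were left out, and 56 tested rows repeat a name. Depth was estimated from the step between low values in a library, of which 81.8% to 89.1% were whole multiples within 0.05 (21.5% in VIPKO hypoxia 2, left without an estimate). On simulated data for this comparison (21658 genes, 200 changed), the test found 54% of those changed 2-fold and 89% of those changed 4-fold, and 4.03% of its calls were wrong. The simulation shuffled deviations from the group means separately within each gene. Deviations that a library shares across genes were thus not kept, and these rates may not hold for the real calls.

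Named genes are Vip, the 12 largest rises and falls among called genes whose groups do not overlap and whose higher mean is at least 50, up to 3 genes with the smallest p per list (or the nearest gene where none passed), and 5 interactions in each direction. Results of 2 of these genes are not reported here. The comparison, the 58 lists and the rule were chosen with earlier results of these data known. A list is described by its counts and median, and 691 of the 726 listed genes were tested. Coordinates are from GENCODE vM21 on mm10 (GRCm38), and promoter windows from RefSeq. Alternatives were other pseudocounts, filters, scalings, array weights, no variance trend, 2 groups only, a replicate block and libraries left out. Leaving out VIPKO hypoxia 2 and 3, and a term for high Xist, were added after seeing the data. Python 3.11.15, pandas 2.3.3 and scipy 1.17.1 were used.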

Additional observations from a re-analysis of the deposited data

Results flagged for a closer look

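Within groups, 26 of 296 gene and group pairs of the named genes held a library set apart from its group, where chance gives about 1 in 20. In VIPKO hypoxia, Vip was at 105.88 in the library labelled VIPKO hypoxia 4 and at most 4.7 in the other 4, and Rgs5 was at 2963.7 there. VIPKO hypoxia 3 was set apart below its group for Olfm2 (11.867), Ffar1 (14.025), Sox11 (212.53) and Ndrg1 (1014.1), and above it for Napsa (7428.1), Marco (605.22) and the thymus gene Tbata (801.57). VIPKO hypoxia 2 was high for Siglecg (160.72), and VIPKO hypoxia 1 was high for the platelet gene Pf4 (190.71).

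Among the controls, WT normoxia 2 was low for S100a9 (39.633), Ece1 (7078.8), Ldha (1213.0), Pfkl (656.78), Pcna (426.91), Sftpd (2866.3), Hspa5 (3056.0) and the haemoglobin gene Hba-a2 (14.87), and high for Cfap126 (205.24). WT normoxia 5 was high for Col12a1 (3440.4), Cd163 (207.61), Lyve1 (4533.9) and Cry1 (577.23). WT normoxia 1 was low for Cyp1a1 (76.72). WT normoxia 4 was flagged as low for Ly6g (0.3444), but that is the signal of 1 read in this library, the deepest control. All controls were under the signal of 3 reads for Ly6g, so this flag does not show a low library.

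The effect of hypoxia was called as differing between VIPKO and WT lungs, by the interaction term of limma, for 10 of the named genes. Only Fst, Vegfc and Cyp2a5 kept that call with each WT normoxia or VIPKO hypoxia library left out in turn. With the replicate block 0 interactions were called. The difference was positive on the log2 scale for Fst (1.6339), Serpina3n (1.4306), Vegfc (1.2566), Lox (1.2334) and Lipg (1.0319). It was negative for Bpifa1 (-6.8666), Cyp2a5 (-4.2802), Sult1d1 (-3.1833), Serpina9 (-2.9426) and Adh7 (-2.3123).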

How the results depend on the processing

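The share of genes called, 12.3%, became 21.6% (2466 higher, 2218 lower) with array weights, 5.97% (670 and 623) with a replicate block and 7.33% (767 and 802) without VIPKO hypoxia 2 and 3. It became 1.98% (210 and 211) without 4 libraries set apart for a further fit (WT normoxia 5, VIPKO hypoxia 2 and 3, and the library labelled VIPKO hypoxia 4). That fit has fewer samples and kept only libraries 1 and 5 of VIPKO hypoxia. WT normoxia 2 was kept, though its array weight was lower than that of WT normoxia 5 (0.423 against 0.707). In that last fit 382 of the 2666 genes were called, with the same sign. The share past 2-fold, 2.96%, became 1.85% with the block and 0.996% without those 4 libraries. Leaving out single libraries gave 6.28% to 13.6% called, 724 to 1561 genes higher, 633 to 1472 lower and 1.87% to 3.95% past 2-fold, with 1.91% when VIPKO hypoxia 3 and 1.87% when the library labelled VIPKO hypoxia 4 was left out. The 61 interaction calls became 2228 with array weights, 12 with no variance trend, 118 without VIPKO hypoxia 2 and 3, and 7 to 364 with single libraries left out, 7 without WT normoxia 4 and 364 without VIPKO hypoxia 3. With the replicate block limma called 0 interactions, with 2670 genes at an unadjusted p under 0.05. The cause of these shifts was not tested. Vip differed by -16.83 without the library labelled VIPKO hypoxia 4 and by -16.83 to 18.67 over single libraries left out. The ratio of mitochondrial ribosomal RNA stayed at 6.57 to 10.8.

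Of the 136 named genes called, 113 were called with the block, 106 without VIPKO hypoxia 2 and 3, 72 without the 4 libraries, 118 to 132 with single libraries left out, and 126 to 136 in the other fits (other pseudocounts, filters, scalings, weights or covariates). Same-numbered libraries of the 2 groups correlated by -0.018 to 0.126, so the numbers do not pair the samples. Only number 3 correlated best with its own number. Library depth limits genes near the floor of 3 reads, and 54% of simulated 2-fold changes were recovered.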

Other observations

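Further genes, chosen after their values were seen, separated the 2 groups and belong to none of the gene groups described above. Ntrk2, which encodes the neurotrophin receptor TrkB, had a signal of 5122, 8469.6, 6282, 9707 and 7639 in VIPKO hypoxia 1 to 5 and 676 to 954, with a median of 755, in WT normoxia, and its log2 difference was 3.21 ± 0.26 (adjusted p = 2.86e-07). Every VIPKO hypoxia library was above every control. Set against the same controls, Ntrk2 changed by 1.37 with hypoxia alone (adjusted p = 0.00422) and by 0.52 with the VIPKO genotype alone (adjusted p = 0.245). Rgs5, a regulator of G protein signalling that pericytes express but that was not on the pericyte list, was at 932, 872, 832, 2964 and 752 against 135 to 199.8, with a median of 147, and rose by 2.80 ± 0.31 (adjusted p = 1.48e-05). The library labelled VIPKO hypoxia 4 stood far above the other 4, all of which were above every control. Ramp3, which pairs with a calcitonin-like receptor to bind adrenomedullin, was at 187, 145, 142, 137 and 173 against 34.6 to 79.8 and rose by 1.64 ± 0.20 (adjusted p = 4.95e-05).

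Cdk19, a kinase of the mediator complex, was at 4205, 7225, 6688, 8976 and 7452 in VIPKO hypoxia against 1641 to 2192, with a median of 1915, in WT normoxia and rose by 1.82 ± 0.18 (adjusted p = 3.05e-06). Klhl4, a kelch-like protein gene on the X chromosome, was at 88.5, 74.9, 99.3, 134 and 128 against 19 to 33.1 and rose by 1.98 ± 0.21 (adjusted p = 7.12e-06). In the other direction, Dpysl5, a collapsin response mediator gene known from neurons, was at 133, 99.6, 96, 123 and 140.3 against 345 to 398, with a median of 369, and fell by 1.65 ± 0.12 (adjusted p = 1.16e-07). Adrb1, the beta-1 adrenergic receptor gene, was at 1167, 1044, 1241, 1167 and 1107 against 1956 to 2646 and fell by 0.95 ± 0.10 (adjusted p = 8.58e-06). The 2 groups did not overlap for any of these 7 genes, and all 7 kept their call with each of the 11 libraries left out in turn. The 7 were chosen from these same values, so neither is independent support.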
